A study of Homo sapiens with 6 samples.

Results

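The nuclear-encoded genes of oxidative phosphorylation were followed in A549 cells, a human lung adenocarcinoma line, after knock-down of KMT9α, the catalytic subunit of a histone methyltransferase encoded by N6AMT1. Genes were taken by name from the deposited count table: NDUFA, NDUFB, NDUFC, NDUFS and NDUFV genes, UQCR genes, the COX5 to COX8 genes, ATP5 genes, SDHA to SDHD and CYC1. The name pattern found 91 of the 23180 gene symbols, of which 79 encode subunits (36 of complex I, 4 of complex II, 9 of complex III, 15 of complex IV and 15 of complex V) and 12 are other genes with matching names, such as pseudogenes, antisense genes and readthroughs. The pattern does not reach COX4I1, the common form of cytochrome c oxidase subunit IV, whose values are given beside complex IV. RNA-Seq had been made from 3 samples transfected with the siRNA labelled siRNA_Control (siControl) and 3 transfected with the siRNA labelled siRNA_KMT9a (siKMT9a), all of wild-type genotype at passage 11 and called biological replicates by the labels. Total RNA was taken 3 days after transfection. Whether they came from separate cultures is not said further, so p-values measure the spread between these samples. Only 1 siRNA against KMT9α was sequenced, so loss of KMT9α and other effects of that siRNA cannot be told apart.

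Oxidative phosphorylation takes place at the inner mitochondrial membrane. Complexes I and II pass electrons from NADH and succinate to coenzyme Q, complex III passes them on to cytochrome c and complex IV to oxygen, while complexes I, III and IV pump protons. Complex V, the ATP synthase, lets the protons back through a membrane ring of c subunits, whose rotation drives the catalytic F1 head. A few subunits of complexes I, III, IV and V are encoded in mitochondrial DNA. No mitochondrial chromosome rows are in the table used here, so the mitochondrial-encoded subunits were not analysed here. For each symbol the transcript with the largest count over all samples was used, and levels are given as CPM, counts scaled to the library total after correction with TMM factors for library composition.

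Counts over these transcripts ranged from 13740097 to 19832395.5 per sample. N6AMT1 had 10.2, 10.8 and 11.5 CPM in the siControl samples and 2.87, 3.22 and 3.35 CPM in the siKMT9a samples, a log2 fold change of -1.77 (standard error, SE, 0.12). Of 10 genes listed as epithelial or A549 markers, all were above 1 CPM in at least 1 group, 7 fell (EPCAM most, by 2.76 on the log2 scale) and 2 rose, while of 8 markers of leukocytes, endothelium and fibroblasts 7 stayed under 1 CPM in every sample. The summed level of the epithelial and A549 list was 8618 to 9044 CPM in siControl and 6520 to 6615 CPM in siKMT9a, and its part in the results below was not tested. In bulk samples, fewer cells of a kind and less RNA per cell cannot be told apart.

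Most respiratory subunit mRNAs were modestly lower after knock-down. Once transcript length and GC content were allowed for, 28 of the 74 subunits tested were lower and 21 higher at an adjusted p under 0.05. That is near the shares over all genes in that fit for the lower calls, where 37.9% were lower and 38.9% higher. In the fit without this allowance a small group departed from the rest by much more. The largest falls were in SDHC, the membrane anchor subunit of complex II, in ATP5C1, ATP5B and ATP5G1 of the ATP synthase, and in NDUFA12, NDUFB7 and NDUFV2 of complex I, all to between 0.403 and 0.517 of the siControl level. The largest rise among subunits was that of ATP5A1, which encodes the partner of ATP5B in the catalytic F1 head, to 1.79 times the siControl level. Summed over the 79 subunits, the level was 10011, 10320 and 10132 CPM in the siControl samples and 8580, 8645 and 8139 CPM in the siKMT9a samples. The groups did not overlap, and the summed level in siKMT9a was 0.833 of that in siControl. Without ATP5B, the most abundant subunit mRNA, it was 0.868. These sums were not adjusted for transcript length or GC content.

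Of the 91 genes, 84 had enough counts to be tested, and the other 7 were near 0 in both groups. In the quasi-likelihood test of edgeR, adjusted by the Benjamini-Hochberg method over 13877 genes, 56 of the 84 were lower and 12 higher in siKMT9a at an adjusted p under 0.05, while over all genes tested 38.5% were lower and 37.1% higher. Among the 74 subunits tested the counts were 52 lower and 9 higher. Their median log2 fold change was -0.19, against -0.01 for all genes tested. The groups did not overlap, with siKMT9a lower, for 56 of the 84 genes, and with siKMT9a higher for 11, where the shares over all genes tested were 39.4% and 37.6%. At a stricter threshold, an unadjusted p under 1e-08 and an absolute log2 fold change over 0.26, 12 of the 84 (14.3%) were lower and 3 (3.57%) higher, where 10.7% and 13.5% of all genes tested were. An exact two-sided permutation test of a single gene cannot go below p = 0.1 with 3 samples against 3, so no single gene could pass it.

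Fold changes differed with transcript length across all genes tested, and many of the modest falls were not called once length and GC content were allowed for together. The counted subunit transcripts had a median length of 894.5 bases, against 2922 for all genes tested, and 43 of 74 were under 1 kb. Across all 928 tested genes under 1 kb the median log2 fold change was -0.17, with 47.2% lower and 25.2% higher, whereas the genes of 4 kb and over had a median of 0.17. With offsets for length and GC content fitted for each sample, 32 of the 84 genes were lower and 25 higher, against 37.9% and 38.9% of all genes in that fit, and the median log2 fold change of the subunits was -0.06. Of the 56 genes called lower, 32 were also lower with the offsets, 23 were no longer called and NDUFB10 was called higher, while the 12 called higher were all higher with them and 12 more were called higher. The parts of length and of GC content were not separated. In the fit without offsets, 15 of the 56 lower calls, at -0.18 to -0.13, and 2 of the 12 higher calls, ATP5D and ATP5EP2, were lost without at least 1 of the 6 samples. In the fit reported here and in each of its 17 alternatives, 27 subunits were lower and 8 higher at an adjusted p under 0.05. They include all 14 subunits past the stricter threshold, but also smaller changes such as UQCRC1 at 0.22 and NDUFA10 at -0.24. The share of all genes called in every fit was not computed, so these counts cannot be set against it.

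**Figure D1:**
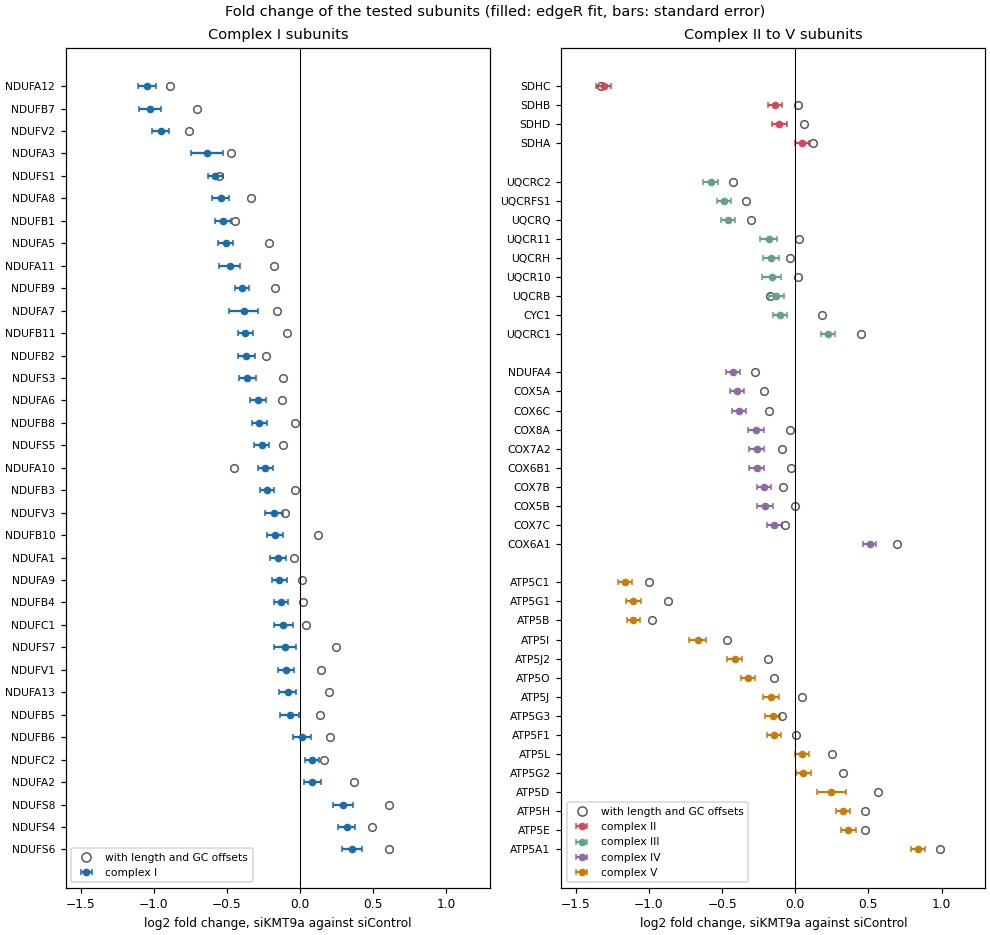
Log2 fold change of siKMT9a against siControl for 73 of the 74 subunits tested, ordered within each complex (filled points, with bars for the standard error), and the same value with length and GC offsets (open circles). Most filled points lie slightly below 0 and most open circles lie to their right, while SDHC, ATP5B, ATP5C1, ATP5G1, NDUFA12, NDUFB7 and NDUFV2 stay far below 0 and ATP5A1 and COX6A1 stay above it.

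Levels per transcript length differed widely between subunits of the same complex before any knock-down. They depend on the annotated length of the counted transcript, and a range also depends on the number of subunits it covers. In siControl, complex I ranged from 17.8 CPM per kb for NDUFV3 to 413 CPM per kb for NDUFA1, with a median of 76.7 CPM per kb over 36 subunits. Complex II, with only 4 subunits, had the narrowest range, from 43.0 CPM per kb for SDHC to 84.5 for SDHB. Complex III had a median of 97.1 CPM per kb, complex V of 147, and complex IV the highest, 272 CPM per kb. The highest subunit of all was COX6B1 at 679 CPM per kb. After knock-down the range within complex II widened from 1.96-fold to 4.42-fold, while in complex I it was 23.3-fold and then 23.7-fold.

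**Figure D2:**
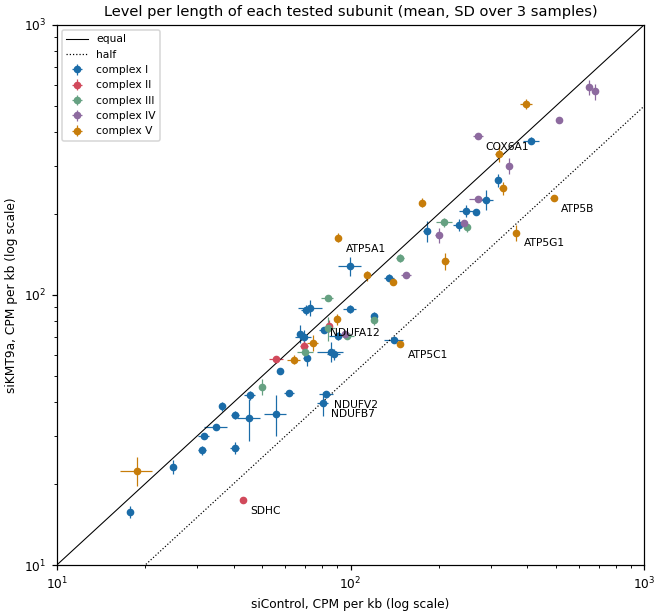
Level of each tested subunit in siControl (horizontal) and siKMT9a (vertical) in CPM per kb of the counted transcript, both on log scales, as the mean with bars for the SD over 3 samples. The solid line marks equal levels and the dotted line a fall to 0.5 of the siControl level. Most points lie just below the solid line, SDHC, ATP5B, ATP5C1, ATP5G1, NDUFA12 and NDUFB7 lie below the dotted line, and of the points above the solid line ATP5A1 and COX6A1 lie farthest from it.

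Complex I has 7 nuclear-encoded core subunits, which carry the flavin and the iron-sulphur clusters. NDUFV2, which carries an iron-sulphur cluster next to the flavin site, had 72.8, 73.5 and 80.5 CPM in siControl and 38.8, 40.4 and 38.4 CPM in siKMT9a. Its log2 fold change was -0.95 (SE 0.06, adjusted p = 1.70e-11). NDUFS1, the largest core subunit, had 143, 139 and 134 CPM in siControl and 89.3, 98.3 and 91.1 CPM in siKMT9a, and fell by 0.58 on the log2 scale (SE 0.05, adjusted p = 4.70e-09). Neither pair of groups overlapped. By contrast NDUFV1, which binds NADH and the flavin beside NDUFV2, had 69.3, 76.0 and 73.9 CPM and then 69.5, 70.7 and 65.2 CPM. These groups overlapped, with a log2 fold change of -0.10 (adjusted p = 0.119) that was 0.14 with length and GC offsets (adjusted p = 0.00885). The ratio of NDUFV2 to NDUFV1 per kb was 1.82 ± 0.109 in siControl and 1.01 ± 0.0277 in siKMT9a (SD, n = 3).

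Further core subunits changed less. NDUFS3, which lies at the coenzyme Q side of the peripheral arm, fell by 0.36 on the log2 scale (adjusted p = 1.18e-05) and was not called with length and GC offsets. NDUFS8, which carries iron-sulphur clusters in the same arm, had 51.5, 62.0 and 59.5 CPM in siControl and 75.7, 70.6 and 66.4 CPM in siKMT9a. Without the offsets it was the only core subunit called higher, at a log2 fold change of 0.30 (SE 0.07, adjusted p = 0.000565), and it was at 0.61 with them. NDUFS7, its neighbour in the electron path, had a log2 fold change of -0.10 (adjusted p = 0.236) without the offsets and 0.25 with them. With the offsets NDUFS7 and NDUFV1 were called higher too, so that 3 core subunits were higher and 2 lower. Over all genes in that fit 38.9% were higher and 37.9% lower.

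Among the 29 accessory subunits of complex I, which surround the core and are needed for its assembly or stability, 21 were lower (72.4%) and 2 higher (6.90%). Of all genes tested 38.5% were lower and 37.1% higher. With length and GC offsets 12 accessory subunits were lower and 8 higher, beside 37.9% and 38.9% of all genes. The lower calls in that fit were near the share over all genes. NDUFA12, on the peripheral arm, had 89.8, 82.5 and 77.2 CPM in siControl and 40.2, 39.4 and 41.0 CPM in siKMT9a. Its log2 fold change of -1.05 (SE 0.06, adjusted p = 8.81e-12) was the lowest of complex I. NDUFB7, on the outer side of the membrane arm, had 41.5, 44.2 and 45.0 CPM and then 20.3, 24.1 and 20.03 CPM, a log2 fold change of -1.03. The groups lay well apart for both genes, and both stayed lower with length and GC offsets, by 0.89 for NDUFA12 and 0.70 for NDUFB7.

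Next in size were NDUFA3 at -0.63, NDUFA8 at -0.54, NDUFB1 at -0.52 and NDUFA5 at -0.51 on the log2 scale, all membrane-arm or peripheral accessory subunits that were also lower with the offsets, at -0.47, -0.33, -0.45 and -0.21. Those called higher without the offsets were NDUFS4 and NDUFS6, which sit at the base of the NADH-binding module next to NDUFA12. NDUFS4 had 48.8, 45.5 and 46.6 CPM in siControl and 56.0, 61.0 and 58.8 CPM in siKMT9a, a log2 fold change of 0.32. NDUFS6 had 48.8, 54.5 and 58.5 CPM and then 72.6, 72.6 and 62.8 CPM, the highest log2 fold change of complex I at 0.36 (adjusted p = 0.000124). For both the siKMT9a samples were all above the siControl samples, and the offsets gave 0.49 for NDUFS4 and 0.61 for NDUFS6. A further 6 accessory genes, NDUFC1, NDUFA13, NDUFB5, NDUFB6, NDUFC2 and NDUFA2, had adjusted p from 0.131 to 0.844 and log2 fold changes between -0.11 and 0.09. With the offsets 5 of these were called higher, NDUFA2 at 0.37, NDUFB6 and NDUFA13 at 0.20, NDUFC2 at 0.17 and NDUFB5 at 0.14, and NDUFC1 was at 0.040 (adjusted p = 0.561). NDUFC2 shares its span with a readthrough gene and NDUFA2 overlaps TMCO6. The strand used in counting is not stated, so such reads cannot be assigned with certainty.

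Succinate dehydrogenase, or complex II, is built from the flavoprotein SDHA, the iron-sulphur protein SDHB and the membrane anchors SDHC and SDHD, all encoded in the nucleus. SDHC (transcript NM_003001, hg19 chromosome 1 from 161284166 to 161334535, plus strand, a span that also overlaps CFAP126) had 125, 120 and 122 CPM in siControl and 49.7, 50.4 and 47.9 CPM in siKMT9a. Its log2 fold change of -1.31 (SE 0.05, adjusted p = 1.71e-14) was the lowest of all 91 genes, and its 4 transcripts in the table lay between -1.31 and -1.29. Length and GC offsets left it at -1.33. The other subunits moved little. SDHA had 137, 124 and 135 CPM and then 140, 133 and 136 CPM, with overlapping groups and a log2 fold change of 0.05 (adjusted p = 0.413) that was 0.12 with the offsets (adjusted p = 0.0255). SDHB had 96.7, 95.6 and 94.0 CPM and then 86.5, 91.3 and 82.6 CPM, a log2 fold change of -0.14 (adjusted p = 0.0184) that was no longer called by DESeq2, with the offsets or without any 1 sample other than siKMT9a replicate 2, where it ran from -0.14 to -0.10. SDHD had 95.3, 96.3 and 91.3 CPM and then 87.1, 91.8 and 83.7 CPM, at -0.11 (adjusted p = 0.0598). The ratio of SDHC to SDHA per kb was 0.772 ± 0.0327 in siControl and 0.301 ± 0.0121 in siKMT9a (SD, n = 3).

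Bases 2 to 8 of the guide strand of an siRNA can pair with seed sites in the 3′ UTR of other mRNAs. The authors name siKMT9α#1 as the siRNA of the RNA-Seq, while the sample labels give no number. From the sequence of siKMT9α#1 in the methods, the site for its guide is ACATTCA. It was found in the annotated 3′ UTR of 2 of the 74 subunits tested (2.70%), SDHC and UQCR11, and in 11.6% of all 12846 tested genes with a matched 3′ UTR. The subunits had a median 3′ UTR length of 190.5 bases, against 1068 over all genes. The sites are shown because SDHC had the largest fall, with the seed match in capitals, on GRCh37, which shares its coordinates with hg19.
SDHC, chr1:161332252-161332280, plus strand: tacacattattACATTCAcccatctttct
UQCR11, chr19:1597801-1597829, minus strand: taaagcaacgaACATTCActctctcacag
UQCR11, a small subunit of complex III, had a log2 fold change of -0.18 (SE 0.06, adjusted p = 0.00668) and 0.03 with the offsets. Counting any annotated coding transcript, 9 of the 74 subunits held the match (12.2%), against 16.9% of all genes tested. The 7 further subunits were NDUFA10, NDUFA5, NDUFA9, NDUFB5, NDUFB9, NDUFS1 and SDHD, whose log2 fold changes ran from -0.58 to -0.07. The part of seed sites in these changes was not tested.

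**Figure D3:**
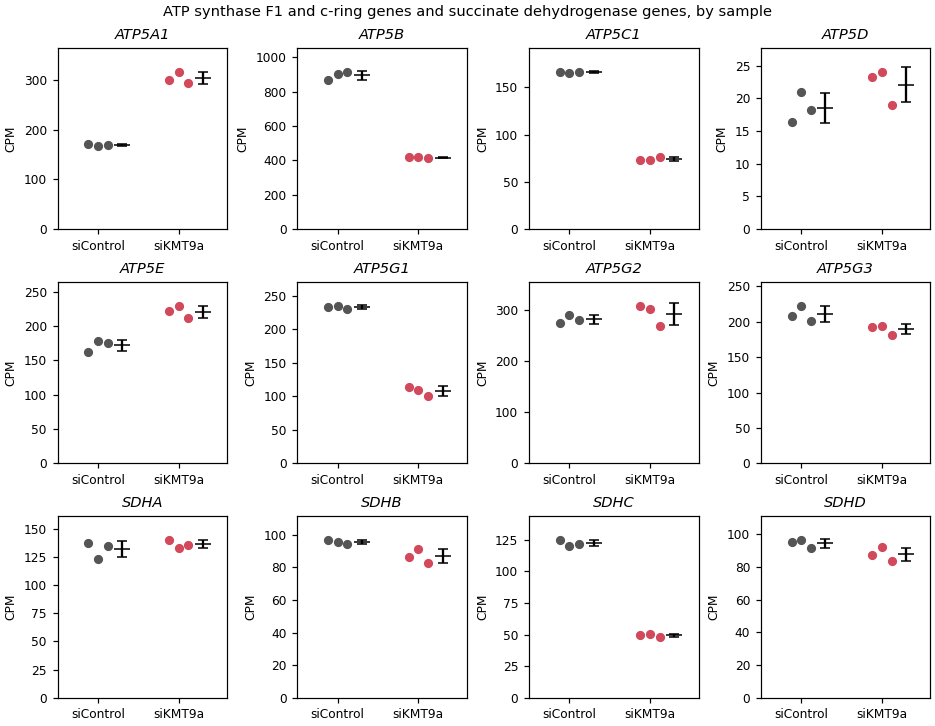
Level in CPM in each sample for the 5 genes of the ATP synthase F1 head (ATP5A1 to ATP5E), the 3 genes of the c subunit and the 4 genes of succinate dehydrogenase, with points for samples and black bars for the mean and SD over 3 samples, each axis starting at 0. ATP5B, ATP5C1, ATP5G1 and SDHC dropped in all 3 siKMT9a samples, ATP5A1 and ATP5E were higher in all 3, and ATP5G2 and SDHA overlapped between the groups.

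In complex III, which hands electrons from coenzyme Q to cytochrome c, 7 of 9 subunits were lower and 1 was higher, or 4 and 2 with length and GC offsets. Over all genes tested the shares were 38.5% lower and 37.1% higher, or 37.9% and 38.9% with the offsets. The core proteins UQCRC1 and UQCRC2, which face the matrix and form a pair in the complex, changed in opposite directions. UQCRC2 had 195, 200 and 201 CPM in siControl and 132, 139 and 128 CPM in siKMT9a, a log2 fold change of -0.58 (SE 0.05, adjusted p = 1.73e-09). UQCRC1 had 127, 132 and 139 CPM and then 157, 155 and 153 CPM, at 0.22 (SE 0.05, adjusted p = 0.000402). Neither overlapped between the groups, and both kept their direction with the offsets, at -0.43 for UQCRC2 and 0.45 for UQCRC1. UQCRC2 exceeded UQCRC1 per kb in siControl, with a ratio of 1.45 ± 0.0478, and fell below it in siKMT9a, with a ratio of 0.829 ± 0.0332 (SD, n = 3).

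UQCRFS1, the Rieske iron-sulphur protein, had 303, 312 and 298 CPM in siControl and 216, 225 and 210 CPM in siKMT9a, and fell by 0.49 on the log2 scale (adjusted p = 1.54e-08). CYC1, cytochrome c1, had 173, 183 and 173 CPM and then 168, 167 and 158 CPM, at -0.11 (adjusted p = 0.0543) without the offsets and 0.18 with them, where it was called higher. UQCRQ, a small subunit at the coenzyme Q side, fell by 0.46 and was at -0.31 with the offsets. UQCR10, UQCRH and UQCRB had log2 fold changes of -0.16, -0.17 and -0.13. With the offsets the calls of UQCR10, at 0.0172, and UQCRH, at -0.0395, were lost, and UQCRB was at -0.17. None of the 3 calls held without siControl replicate 2, at -0.12, -0.11 and -0.11. UQCRH has a close copy, UQCRHL, at 187 CPM per kb in siControl beside 208 for UQCRH. The copies took 52.7% ± 2.36 (UQCRH) and 47.3% ± 2.36 (UQCRHL) of their sum, and 51.9% ± 0.246 and 48.1% ± 0.246 after knock-down (SD, n = 3), a near-even split that leaves the level of each uncertain.

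In complex IV, 9 of the 10 subunits tested were lower, by 0.14 to 0.43 on the log2 scale, and COX6A1 alone was higher. The shares of all genes tested were 38.5% lower and 37.1% higher. NDUFA4, named after complex I but a subunit of complex IV, had 201, 203 and 187 CPM in siControl and 149, 146 and 145 CPM in siKMT9a, the lowest log2 fold change of the complex at -0.43 (SE 0.05, adjusted p = 1.61e-07). COX5A and COX6C followed at -0.40 and -0.39. These 3 genes were the only complex IV subunits that were also lower with length and GC offsets, at -0.27, -0.22 and -0.18. In that fit 37.9% of all genes were lower. COX6A1, the form of subunit VIa made outside muscle, had 153, 144 and 143 CPM in siControl and 209, 211 and 207 CPM in siKMT9a. All siKMT9a samples were above all siControl samples, with a log2 fold change of 0.51 (SE 0.05, adjusted p = 8.87e-09) and 0.69 with the offsets. COX4I1, outside the name pattern, had 292, 311 and 296 CPM and then 292, 273 and 264 CPM, at -0.12 (adjusted p = 0.0386) without the offsets and 0.12 with them (adjusted p = 0.0134). The lower call of COX4I1 was also lost by DESeq2 and without any 1 sample other than siKMT9a replicate 1, at -0.12 to -0.083.

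Complex IV subunits with tissue-specific copies were represented almost wholly by the widespread copy. COX6A2, the muscle form of COX6A1, had 0 counts in every sample, which allows up to 0.156 to 0.227 CPM by sample at the limit of 3 counts, a limit that covers counting error only. COX4I2, the lung form of subunit IV, was also at 0 in every sample. COX6B2, a testis form, held 0.00579% ± 0.00368 of the sum with COX6B1 per kb in siControl and 0.0310% ± 0.00713 in siKMT9a (SD, n = 3). These shares rest on 2, 1 and 0.5 counts in siControl and 5, 4 and 4 counts in siKMT9a, around the limit of 3 counts. COX6B2 was not tested. COX7A1, COX7B2 and COX8C did not pass 0.208 CPM in any sample and were not tested. Their widespread partners COX6B1, COX7A2 and COX8A fell by 0.26, 0.26 and 0.27 on the log2 scale, and none of these calls held with the offsets.

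The ATP synthase, complex V, had the widest range of log2 fold changes of the 5 complexes, from -1.16 to 0.84, with 9 of 15 subunits lower, 4 higher and 2 not called. Over all genes tested 38.5% were lower and 37.1% higher. With length and GC offsets 6 subunits were lower and 6 higher, near the 37.9% and 38.9% of all genes in that fit. The F1 head of complex V is a ring of alternating alpha and beta subunits around a central gamma stalk. Delta and epsilon lie at the foot of the stalk. ATP5B, the catalytic beta subunit (NM_001686, hg19 chromosome 12 from 57031959 to 57039852, minus strand), had 867, 905 and 917 CPM in siControl and 418, 419 and 412 CPM in siKMT9a, a log2 fold change of -1.11 (SE 0.05, adjusted p = 6.98e-14). ATP5A1, the alpha subunit (NM_004046, hg19 chromosome 18 from 43664110 to 43678287, minus strand), had 172, 168 and 170 CPM and then 299, 317 and 295 CPM, at 0.84 (SE 0.05, adjusted p = 5.01e-12). The groups lay far apart for both genes, in opposite directions. The ratio of ATP5B to ATP5A1 per kb was 5.17, 5.52 and 5.53 in the siControl samples and 1.43, 1.35 and 1.43 in the siKMT9a samples.

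ATP5C1, the gamma subunit (NM_001001973, hg19 chromosome 10 from 7830093 to 7849762, plus strand), had 167, 165 and 166 CPM in siControl and 72.8, 73.3 and 76.0 CPM in siKMT9a. At -1.16 (SE 0.05, adjusted p = 3.98e-14) it was the lowest of complex V. The small stalk subunits had positive log2 fold changes. ATP5E, epsilon, had 163, 178 and 175 CPM and then 222, 230 and 212 CPM, at 0.36 (adjusted p = 2.71e-06), in a span shared with the readthrough SLMO2-ATP5E. ATP5D, delta, had 16.4, 21.1 and 18.2 CPM and then 23.2, 24.1 and 19.0 CPM, at 0.25 (SE 0.10, adjusted p = 0.0312) with overlapping groups. With the offsets ATP5D was at 0.57, while its call was lost with library size as the only scaling, at 0.14, and without siControl replicate 1 or 3 or siKMT9a replicate 1 or 2, at 0.18 to 0.25. With length and GC offsets ATP5B was at -0.98, ATP5C1 at -0.998 and ATP5A1 at 0.99, each in the same direction as without them.

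The c subunit of the membrane ring is encoded by ATP5G1, ATP5G2 and ATP5G3, which differ in the part that is cleaved off on import and give the same mature protein. ATP5G1 had 234, 235 and 230 CPM in siControl and 115, 110 and 100 CPM in siKMT9a, a log2 fold change of -1.11 (SE 0.05, adjusted p = 3.75e-13). ATP5G2 had 273, 289 and 280 CPM and then 307, 301 and 267 CPM, with overlapping groups and a log2 fold change of 0.06 (adjusted p = 0.351) that was 0.33 with the offsets, where it was called higher, and -0.05 with library size as the only scaling. ATP5G3 had 208, 222 and 200 CPM and then 193, 194 and 181 CPM, at -0.15 (adjusted p = 0.0105), and was not called with the offsets or, at -0.10, without siControl replicate 2. Per kb, the share of ATP5G1 in the sum of the 3 genes went from 48.7% ± 0.661 to 30.3% ± 0.270, and that of ATP5G2 from 42.7% ± 0.623 to 59.4% ± 0.407 (SD, n = 3). These shares depend on the length of the counted transcript, 637 bases for ATP5G1, 875 for ATP5G2 and 3286 for ATP5G3.

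The remaining subunits belong to the peripheral stalk and the membrane part. ATP5I, the e subunit of the membrane part, had 74.0, 77.8 and 74.1 CPM in siControl and 49.8, 49.5 and 43.6 CPM in siKMT9a, and fell by 0.67 on the log2 scale (adjusted p = 4.56e-09). ATP5J2, the f subunit, fell by 0.41, and shares reads with the readthrough ATP5J2-PTCD1, listed at -0.39. With length and GC offsets ATP5J2 was at -0.18 and the readthrough at -0.55. ATP5O, which joins the peripheral stalk to F1, fell by 0.32 and was at -0.14 with the offsets. ATP5J and ATP5F1, also of the stalk, were at -0.17 and -0.15, calls that were lost with the offsets, at 0.0491 and 0.0028. The call of ATP5J was also lost without siControl replicate 2 (-0.12) or siKMT9a replicate 3 (-0.11), and that of ATP5F1 without siControl replicate 3 (-0.13). ATP5H, the d subunit of the same stalk, had 108, 109 and 104 CPM and then 136, 139 and 128 CPM, at 0.32 (adjusted p = 6.71e-06). ATP5L, the g subunit, had a log2 fold change of 0.05 (adjusted p = 0.369) and was called higher with the offsets, at 0.25.

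Of the 12 further genes that match the names, 10 were tested, with 4 lower (40.0%) and 3 higher (30.0%). Over all genes tested 38.5% were lower and 37.1% higher. NDUFA4L2, a hypoxia-induced relative of NDUFA4 whose span overlaps SHMT2, had 7.22, 7.41 and 7.41 CPM in siControl and 4.57, 4.06 and 4.03 CPM in siKMT9a, at -0.80 (adjusted p = 7.40e-06). It took 6.10% ± 0.305 of the sum with NDUFA4 per kb in siControl and 4.76% ± 0.256 in siKMT9a (SD, n = 3). ATP5SL, which takes part in complex I assembly despite its name, had 48.2, 51.7 and 51.7 CPM and then 89.8, 89.6 and 81.3 CPM, at 0.78 (adjusted p = 2.39e-10). COX7A2L, which helps to join complexes III and IV into supercomplexes, had 214, 212 and 207 CPM and then 283, 270 and 260 CPM, at 0.36 (adjusted p = 1.27e-06). For these 3 genes the groups did not overlap, and the calls held with the offsets, at -0.51, 0.92 and 0.55. ATP5S at -0.54 and NDUFB2-AS1, antisense to NDUFB2, at -0.42 were lower as well, and at -0.43 and -0.25 with the offsets. NDUFB2-AS1 overlaps NDUFB2, which was itself at -0.37, or -0.23 with the offsets. As the counting strand is not stated, their reads cannot be told apart with certainty. The pseudogene ATP5EP2 at 0.40 (adjusted p = 0.0473) had overlapping groups and was not called by DESeq2, with library size alone, or without siControl replicate 1 or 3 or siKMT9a replicate 2 or 3, at 0.30 to 0.38. UQCRHL, UQCRBP1 and NDUFC2-KCTD14 had adjusted p from 0.0640 to 0.958. ATP5L2 and NDUFA6-AS1 did not pass 0.598 CPM in any sample and were not tested beside the 5 complex IV genes.

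Promoters of respiratory genes are known for sites of NRF1, the GABP factor of the ETS family, and YY1. RefSeq promoters (GRCh38.p14, 250 bases before to 50 after the start) were matched for 65 of the 79 subunits and searched on both strands. GCATGCGC, a core of the NRF1 site, was in 13 of the 65 subunit promoters, in 5.51% of the matched promoters of genes tested and in 3.27% of all promoters of the table. CCGGAAGT, an ETS site, was in 9 of the 65 (13.8%), in 8.68% and in 4.44%, and AAGATGGCG, a YY1 site, in 8 of the 65 (12.3%), in 3.86% and in 1.85%. Median log2 fold changes were -0.14 over the 13 tested subunits that hold the NRF1 letters and -0.23 over the 48 matched ones that do not. They were -0.14 and -0.22 for the YY1 letters (8 with, 53 without) and -0.18 and -0.22 for the ETS letters (9 with, 52 without). These medians are without length and GC offsets, and their differences were not tested. Members that hold the NRF1 letters went both ways, as in ATP5C1, which fell, and COX6A1 and NDUFS6, which rose. Their stretches follow, placed by exact match on GRCh37, with the motif letters in capitals. In ATP5C1 the reverse and forward motifs overlap, starting 22 and 20 bases before the RefSeq start. In COX6A1 the forward motif starts 218 and the reverse motif 174 bases before it. In NDUFS6 the reverse motif starts 46 bases before it. NDUFS1 is shown for the ETS letters, 158 bases before the start.
ATP5C1, chr10:7830098-7830148, plus strand: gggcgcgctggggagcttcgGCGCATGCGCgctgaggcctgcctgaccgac
COX6A1, chr12:120875678-120875770, plus strand: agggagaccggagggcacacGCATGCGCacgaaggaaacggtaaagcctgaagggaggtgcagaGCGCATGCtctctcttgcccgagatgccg
NDUFS6, chr5:1801455-1801503, plus strand: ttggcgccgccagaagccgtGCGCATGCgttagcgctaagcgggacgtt
NDUFS1, chr2:207024298-207024346, minus strand: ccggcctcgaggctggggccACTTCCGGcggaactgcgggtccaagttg
A match describes letters and not bound sites, and SDHC and ATP5B were not among the 65.

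Of 19 regulators of nuclear respiratory genes and of mitochondrial DNA expression, 10 were not called. A further 3 were lower (15.8%) and 6 higher (31.6%), where 38.5% and 37.1% of all genes tested were. Their median log2 fold change was -0.00. With length and GC offsets none was lower and 7 were higher, with a median of 0.0641. Past the stricter threshold, without the offsets, none was lower and 5 (26.3%) were higher, against 10.7% and 13.5% of all genes tested. The transcription factors NRF1 at 0.19 (adjusted p = 0.161), GABPA at -0.03 (adjusted p = 0.748) and ESRRA at -0.07 (adjusted p = 0.315) did not pass the test, nor did the coactivator PPARGC1A at 0.19 (adjusted p = 0.424), which had 2.42 CPM or less in every sample. The related coactivators PPARGC1B, with 9.40, 9.32 and 10.8 CPM and then 24.6, 21.0 and 22.8 CPM, and PPRC1 rose by 1.21 and 0.79 on the log2 scale, and MYC rose by 0.96. TFAM, which packages mitochondrial DNA, was at -0.12 (adjusted p = 0.0285), the mitochondrial RNA polymerase POLRMT at -0.00 (adjusted p = 0.998), and MTERF1, a mitochondrial termination factor, was lowest at -0.28. With the offsets TFAM was at 0.027 (adjusted p = 0.581) and MTERF1 at -0.13 (adjusted p = 0.0978). The call of TFAM was also lost by DESeq2 and without any 1 sample other than siKMT9a replicate 3, at -0.12 to -0.095. NRF1 was called higher without siControl replicate 1, at 0.29, or siKMT9a replicate 1, at 0.28.

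Among 50 assembly factors, proteins that build the complexes without staying in them, 26 were lower and 10 higher, with a median log2 fold change of -0.21, or 20 and 16 with a median of -0.0543 with length and GC offsets. The lowest were NUBPL, which delivers iron-sulphur clusters to complex I, at -1.54, TIMMDC1, of the complex I membrane arm, at -1.30, and UQCC2, of complex III, at -1.20. The highest were NDUFAF4 at 1.23, which had 27.6, 28.8 and 28.5 CPM in siControl and 67.6, 67.8 and 64.3 CPM in siKMT9a, and TMEM70, which promotes c-ring assembly, at 1.13. LRPPRC, which stabilizes mitochondrial mRNAs, was at 0.10 (adjusted p = 0.0565), was called lower with the offsets, at -0.10 (adjusted p = 0.0239), and was called higher by DESeq2, at 0.11, and without siControl replicate 1 or siKMT9a replicate 1, at 0.13. Of 4 subunits with names outside the pattern, 3 were lower, from -0.21 for NDUFAB1 and USMG5 to -0.10 for C14orf2, and ATPIF1 was at -0.05 (adjusted p = 0.485). None of these 3 calls held with the offsets, where NDUFAB1 was at -0.0439, USMG5 at -0.0453 and C14orf2 at 0.0728. The call of C14orf2 was also lost by DESeq2 and without any 1 sample other than siKMT9a replicate 1, at -0.093 to -0.085.

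Most genes of the mobile electron carriers and their synthesis were lower. Of 14 genes for cytochrome c and coenzyme Q synthesis, 11 were lower (78.6%), where 38.5% of all genes tested were. The other 3 had log2 fold changes from -0.17 to -0.02. The median was -0.44, and with length and GC offsets it was -0.33. In the fit with the offsets 10 were lower and none higher, beside 37.9% and 38.9% of all genes. CYCS, cytochrome c, had 757, 774 and 744 CPM in siControl and 492, 522 and 501 CPM in siKMT9a, a log2 fold change of -0.59 (adjusted p = 1.01e-09). COQ10A was lowest at -0.93 and COQ6 highest at -0.02 (adjusted p = 0.809), or 0.15 with the offsets (adjusted p = 0.107). Of 17 genes of the citric acid cycle and pyruvate dehydrogenase, which supply NADH to complex I, 11 were lower (64.7%) and 3 higher (17.6%). The shares over all genes tested were 38.5% and 37.1%. DLD was lowest at -1.14. With the offsets 7 were lower, near the share over all genes, and 4 higher, and the median went from -0.22 to -0.0657. As other large groups of nuclear genes, 53 of 77 mitochondrial ribosomal protein genes were lower (68.8%) and 7 higher (9.09%), with a median of -0.35. Of 37 proteasome subunits 17 were lower (45.9%) and 8 higher (21.6%), with a median of -0.11. With length and GC offsets these medians were -0.13 and 0.04, beside -0.06 for the subunits, and the differences between the groups were not tested.

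**Figure D4:**
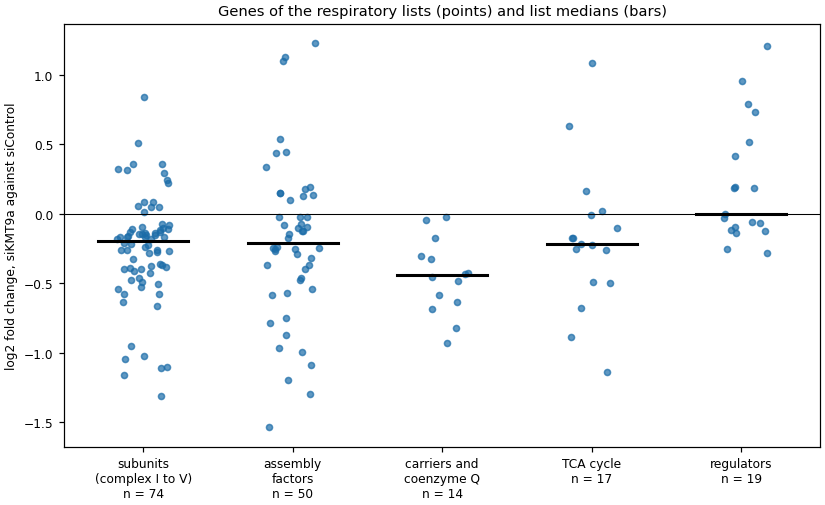
Log2 fold change of siKMT9a against siControl for single genes (points, spread sideways at random) of the 74 respiratory subunits tested and of 4 related lists, with black bars for the list medians. The medians are -0.19 for subunits, -0.21 for assembly factors, -0.44 for carriers and coenzyme Q synthesis, -0.22 for the citric acid cycle and -0.00 for regulators.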

How the data were processed

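RNA-Seq had been performed on 6 A549 samples, 3 siControl and 3 siKMT9a. Per the labels and methods, the authors aligned reads to hg19 with STAR, counted RefSeq transcripts with HOMER and deposited estimated counts per transcript, not normalized, in steps of 0.5. Library type, strand and counting options are not given in the sources used here. The deposited table also holds the authors' own comparison, a fold change (a ratio) with its raw and adjusted p-value for every transcript, and none of these was used. For each symbol only the most counted transcript (by the sum of all samples) entered the fit, so that exons shared within a symbol were counted once. Symbols that share exons with each other, such as ATP5J2 and its readthrough ATP5J2-PTCD1, were each fitted and counted.

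Rounded estimated counts were fitted in R 4.3.3 with edgeR 4.0.16 (TMM, filterByExpr, quasi-likelihood F test, two-sided), with Benjamini-Hochberg adjustment over 13877 genes. The biological coefficient of variation was 4.47%. Totals of 13740097 to 19832395.5 counts per sample left counting error small for all but the lowest genes. The fit was tested on simulated data. GC contents and 3′ UTRs came from GENCODE v44 on GRCh37. Offsets were loess curves on length and GC for each sample, over the 13673 genes with GC content. The value fitted was each gene's log CPM minus its mean over all samples. A difference between the groups that follows length or GC is therefore removed too, whatever its cause. Alternatives were a likelihood-ratio test, DESeq2 1.42.0, other scaling, filters and transcript choices, a replicate block, the offsets, and each sample left out.

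The members and lists were chosen with earlier results of these data known. Genes named with values were the lowest and highest of each complex and list, the 5 largest called changes in each direction, core and paralogous subunits, uncalled genes and fixed regulators. Further subunits and list genes next in size were named after their values were seen, as were the genes whose promoters are shown. Values of 1 subunit and of 1 gene of another list are counted in the totals but not reported here.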

Additional observations from a re-analysis of the deposited data

How the results depend on the processing

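The counts of genes lower (56) and higher (12) stayed within 1.5 times under every alternative but the length and GC offsets, which gave 32 and 25, or 32 and 23 with the replicate block. Past the stricter threshold, 12 lower became 26 with the likelihood-ratio test, 22 with DESeq2, 21 with library size alone, 27 without a filter and 7 with the replicate block, and 3 higher became 6, 5, 2, 7 and 2. With the offsets 12 were lower and 10 higher, and with offsets and block 13 and 11. Leaving out each sample gave 45 to 55 lower and 10 to 13 higher, and 8 to 15 and 2 to 3 past the stricter threshold. The median log2 fold change over the 84 genes, -0.18, was -0.29 with library size alone, a scaling that put the median of all genes at -0.12. By complex I to V the medians with library size alone were -0.34, -0.23, -0.27, -0.37 and -0.26. With the offsets the 84 genes had a median of -0.0405 (-0.0398 with the block) and the complexes -0.0819, 0.0398, -0.0395, -0.0780 and 0.0028 (-0.0819, 0.0405, -0.0388, -0.0779 and 0.0028 with the block), so that complexes II and V changed sign. Over left-out samples the complex IV median ran from -0.28 to -0.23.

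Among the 84 genes and 26 further genes named from the lists, those that changed direction were small changes, COX5B at -0.21 being the largest in size. With the offsets, and with the block in brackets, values were 0.0028 (0.0028) for ATP5F1, 0.0491 (0.0507) for ATP5J, 0.0003 for COX5B, 0.18 (0.19) for CYC1, 0.20 (0.20) for NDUFA13, 0.0137 (0.0130) for NDUFA9, 0.12 (0.12) for NDUFB10, 0.0214 (0.0216) for NDUFB4, 0.14 (0.14) for NDUFB5, 0.040 (0.041) for NDUFC1, 0.25 (0.25) for NDUFS7, 0.14 (0.14) for NDUFV1, 0.020 (0.021) for SDHB, 0.059 (0.060) for SDHD, 0.0172 (0.0154) for UQCR10, 0.0270 (0.0273) for UQCR11, 0.15 (0.16) for UQCRBP1 and 0.021 (0.020) for UQCRHL. In the lists they were 0.10 (0.10) for ESRRA, 0.0270 (0.0257) for TFAM, -0.10 (-0.10) for LRPPRC, 0.0728 (0.0726) for C14orf2, 0.0679 (0.0678) for ATPIF1, 0.15 (0.15) for COQ6 and 0.12 (0.12) for COX4I1. With library size alone they were -0.050 for ATP5G2, -0.058 for ATP5L, -0.020 for NDUFA2, -0.092 for NDUFB6, -0.024 for NDUFC2, -0.10 for NDUFC2-KCTD14, -0.059 for SDHA and -0.0056 for LRPPRC. NDUFC2-KCTD14 was at -0.0095 with at least 10 counts in every sample and -0.0157 with the mean over transcripts. POLRMT, at 0 to 2 decimals, was at 0.0010 with the likelihood-ratio test, 0.0140 with DESeq2, 0.0122 with RLE factors, 0.0114 without a filter, 0.0003 with all transcripts, 0.0006 with the mean over transcripts, 0.0022 with the replicate block, 0.0116 with the offsets and 0.0111 with offsets and block. Over left-out samples NDUFB6 ran from -0.0326 to 0.0790, NDUFC2-KCTD14 from -0.0315 to 0.0568, UQCRBP1 from -0.21 to 0.0684, GABPA from -0.0846 to 0.0320, ESRRA from -0.0995 to 0.0030, POLRMT from -0.0466 to 0.1331, ATPIF1 from -0.10 to 0.0136 and COQ6 from -0.0725 to 0.0334.

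Lower calls lost without 1 sample, 15 in all, were at -0.16 to -0.084 without it. They included COX7C, NDUFA9, SDHB and UQCRB without siControl 1, ATP5G3, ATP5J, COX7C, NDUFA1, NDUFB10, NDUFB4, SDHB, UQCR10, UQCR11, UQCRB and UQCRH without siControl 2, ATP5F1, NDUFA1, NDUFA9, NDUFB10, NDUFB4, NDUFV3, SDHB, UQCR10 and UQCRB without siControl 3, SDHB, UQCR10 and UQCRB without siKMT9a 1, NDUFA9 and NDUFB4 without siKMT9a 2, and ATP5J, COX7C, NDUFB4, NDUFV3, SDHB, UQCR10 and UQCRB without siKMT9a 3. DESeq2 did not call NDUFA9, NDUFB4, NDUFV3, SDHB, UQCR10, UQCRB and ATP5EP2. Calls were gained by ATP5G2 (0.12) and NDUFA2 (0.16) without siKMT9a 3, SDHD (-0.14) without siKMT9a 2 and UQCRHL (-0.18) without siControl 1. The cause of these differences was not tested beyond what each alternative leaves out.

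The groups share replicate numbers, but same-numbered samples did not deviate together (correlations of -0.08, 0.02 and -0.08 for replicates 1, 2 and 3), so the numbers were not taken as pairs. In the paired analysis with a replicate block all 84 genes kept their direction and call, and of the 26 list genes TFAM (-0.12), C14orf2 (-0.10) and COX4I1 (-0.12) were no longer called. Depth limited the test for the 7 genes near 0.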
